A study of Mus musculus with 10 samples.

Results

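Satb1 and the genes that flank it on mouse chromosome 17, Tbc1d5 on its 3′ side and Kcnh8 on its 5′ side, were followed through an ATAC-seq comparison of naive CD4 T cells with and without induced Satb1 deletion. Members were all peaks whose deposited gene symbol was Satb1, Tbc1d5 or Kcnh8, weak peaks included. They numbered 54 of the 61571 annotated peaks, of which 26 carried the symbol Satb1, 3 Tbc1d5 and 25 Kcnh8.

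In ATAC-seq a transposase cuts accessible DNA, so the reads that fall in a peak measure how open that site is. Cells were naive CD4 T cells (CD3+CD4+CD25-CD44low/-CD62L+) from spleen and lymph node, with 60000 cells in each library. All mice were Satb1fl/fl x CD4-CreERT2wt/+, that is, both Satb1 alleles were flanked by loxP sites and one copy of a Cre recombinase that tamoxifen switches on was driven from CD4. The KO group held 5 libraries from tamoxifen-treated mice (Sample_2268_KO to Sample_2272_KO) and the WT group 5 libraries from untreated mice of the same genotype (Sample_2273_WT to Sample_2277_WT), and values are listed in that order. The WT animals thus carried the floxed alleles and the Cre as well, and Satb1 deletion and tamoxifen exposure cannot be told apart in these groups. Age, sex, tamoxifen dose, time after treatment and the floxed exons are not given in the sources used here, nor whether libraries came from separate animals. The p-values thus refer to the scatter among libraries, which may be technical in part.

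SATB1 is a nuclear protein that binds AT-rich DNA, anchors chromatin loops and recruits chromatin-remodelling and histone-modifying enzymes. It is abundant in thymocytes and T cells, where it is known for its part in lineage choice and in the control of cytokine genes. TBC1D5 is a GTPase-activating protein for the endosomal GTPase RAB7 that works with the retromer complex. KCNH8 is a voltage-gated potassium channel of the ELK type, best known from the nervous system. In mm10 coordinates Tbc1d5 runs from 50733127 to 51179352 and Satb1 from 51736187 to 51833290, both on the minus strand. Kcnh8 runs from 52602709 to 52979194 on the plus strand. Satb1 and Kcnh8 are therefore transcribed away from each other, with 769 kb between their start sites, and the start site of Tbc1d5 lies 557 kb past the 3′ end of Satb1.

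Counts in peaks totalled 673398 to 2184717 per library, of which the 54 members took 431 to 1439. Levels are given as counts per 1000000 of the scaled total in tested peaks (CPM), on which scale 1 count was worth 0.499 to 1.67 CPM. Of 20 pairs of libraries within a group, 6 differed by less than sampling noise, so some libraries may not be separate biological samples. Treating each such set as 1 sample left 3 KO and 2 WT samples. On those, 3 of the 4 Satb1 calls and the Kcnh8 call below held (adjusted p = 1.60e-07, 0.0489 and 0.00561 for Satb1 and 1.16e-08 for Kcnh8, edgeR). The 2 CD8 T cell markers summed to 23.4 to 33.3 CPM in KO libraries and 26.5 to 31.8 CPM in WT libraries. The 10 CD4 T cell marker genes all had peaks, with a summed level of 1694 to 1798 CPM in KO libraries and 1680 to 1788 CPM in WT libraries. Of 8 B cell markers 4 had peaks (47.9 to 53.9 CPM in KO, 47.0 to 64.9 CPM in WT libraries), and Ms4a1, Pax5 and Ebf1 were among those with none. Of 8 myeloid markers 4 had peaks (50.0 to 81.9 CPM in KO, 61.5 to 78.9 CPM in WT libraries), and Lyz2, Csf1r, Csf3r and Clec4n had none. Markers of NK and innate lymphoid cells (3 of 5 with peaks, none at Ncr1 or Klra8) summed to 194 to 234 CPM in KO libraries and 187 to 199 CPM in WT libraries (two-sided exact permutation p = 0.0397, unadjusted). Those of regulatory T cells (3 of 3) summed to 233 to 280 CPM in KO libraries and 210 to 245 CPM in WT libraries (exact permutation p = 0.0714, unadjusted). Erythroid and stromal markers (4 of 6 with peaks) summed to 250 to 277 CPM in KO libraries and 243 to 271 CPM in WT libraries. Of all these marker genes Ikzf2, a regulatory T cell factor, was the 1 whose gene sum was called, as higher in KO. Over all gene sums edgeR called 1.65% higher and 0.536% lower. The part of such cells in the results below was not tested.

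Reference sequence shows how different the Satb1 start sites are, and 3 of them lie under peaks. RefSeq (GRCm38.p6) lists starts at 51833290, 51832647 and 51826588, each under a peak of its own, and at 51812184 and 51812054, where no peak lies. The 250 bases before the start are printed 5′ to 3′ for the outer start of Satb1 (chr17:51833291-51833540, minus strand), for the next start (chr17:51832648-51832897, minus strand) and for the only listed start of Kcnh8 (chr17:52602459-52602708, plus strand), because the first pair lie side by side and only the inner one passed the test. Capitals mark matches on either strand to GGAAG (ETS) or GGGCGG (SP/KLF).
Satb1 start 51833290: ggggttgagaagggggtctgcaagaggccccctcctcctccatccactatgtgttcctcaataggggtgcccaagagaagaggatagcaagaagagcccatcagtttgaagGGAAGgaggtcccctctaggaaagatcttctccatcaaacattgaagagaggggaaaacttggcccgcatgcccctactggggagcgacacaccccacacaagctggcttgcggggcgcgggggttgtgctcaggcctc
Satb1 start 51832647: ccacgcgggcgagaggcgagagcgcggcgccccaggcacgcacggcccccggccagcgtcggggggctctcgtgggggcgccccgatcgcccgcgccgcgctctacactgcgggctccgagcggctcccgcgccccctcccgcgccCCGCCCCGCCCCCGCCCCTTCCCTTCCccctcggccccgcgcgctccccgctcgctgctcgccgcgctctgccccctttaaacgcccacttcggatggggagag
Kcnh8 start 52602709: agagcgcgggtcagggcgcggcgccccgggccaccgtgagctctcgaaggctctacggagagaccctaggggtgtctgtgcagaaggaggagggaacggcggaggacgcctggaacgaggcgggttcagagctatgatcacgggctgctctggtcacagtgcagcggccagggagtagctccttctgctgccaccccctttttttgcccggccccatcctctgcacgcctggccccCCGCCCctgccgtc

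The outer Satb1 window had a GC content of 58% and 5 CpG, near the medians of 52.4% and 6 CpG over 32851 mouse promoters of that length. The inner window had a GC content of 80.8% and 41 CpG, a number that only 0.865% of promoters exceed. It held 3 SP/KLF matches and 2 ETS matches, which join into a single run of capitals. An ETS match occurs in 64.1% and an SP/KLF match in 32.7% of the promoters. None of the 8 windows of Satb1, Tbc1d5 and Kcnh8 held a match to AP-1 (letters TGANTCA, found in 6.75% of promoters), to RUNX (letters TGTGGT, found in 14% of promoters), to TCF/LEF (letters CTTTGA, found in 13.8% of promoters), to GATA factors (letters GATAAG, found in 6.55% of promoters) or to the cAMP response element (letters TGACGTCA, found in 1.55% of promoters). The start at 51826588 had 3 CpG before it, and its only match, to the ETS letters, lies inside the peak (chr17:51826657-51826686, minus strand), shown here with its surroundings because this peak rose in KO.
Satb1 start 51826588: acctaggtgtgcaGGAAGtggagggcgttc

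Accessibility at Satb1 was higher in KO at 4 sites spread from its start sites to its 3′ flank. Of its 26 peaks 16 had enough counts for edgeR's quasi-likelihood test, which was fitted to all 34910 testable peaks with adjustment over all of them and a threshold of 0.05. Of the 34910, 2.94% were called higher and 0.911% lower in KO (3.85% in either direction), and libraries of the groups did not overlap in 3.96% (2.78% with KO above, 1.19% with KO below). EdgeR, DESeq2 and limma-voom each called 0 of the 16 lower, and edgeR had 1 lower at an unadjusted p under 0.05. With 0.911% called lower over all tested peaks, 0 lower of 16 is no result about this gene. The median log2 fold change of the 16 was 0.03, against -0.01 over all tested peaks, with 9 above 0 and 7 below. None of the 26 sites was empty over the 5 KO libraries together: the weakest held 13 counts there and the weakest in WT held 10. Sample_2270_KO, the library of lowest total, had 0 counts at 2 untested sites, those starting at 51776894 and 51813264. An ATAC signal averages over cells, so fewer cells with an open site and a less open site in each cell cannot be told apart.

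**Figure D1:**
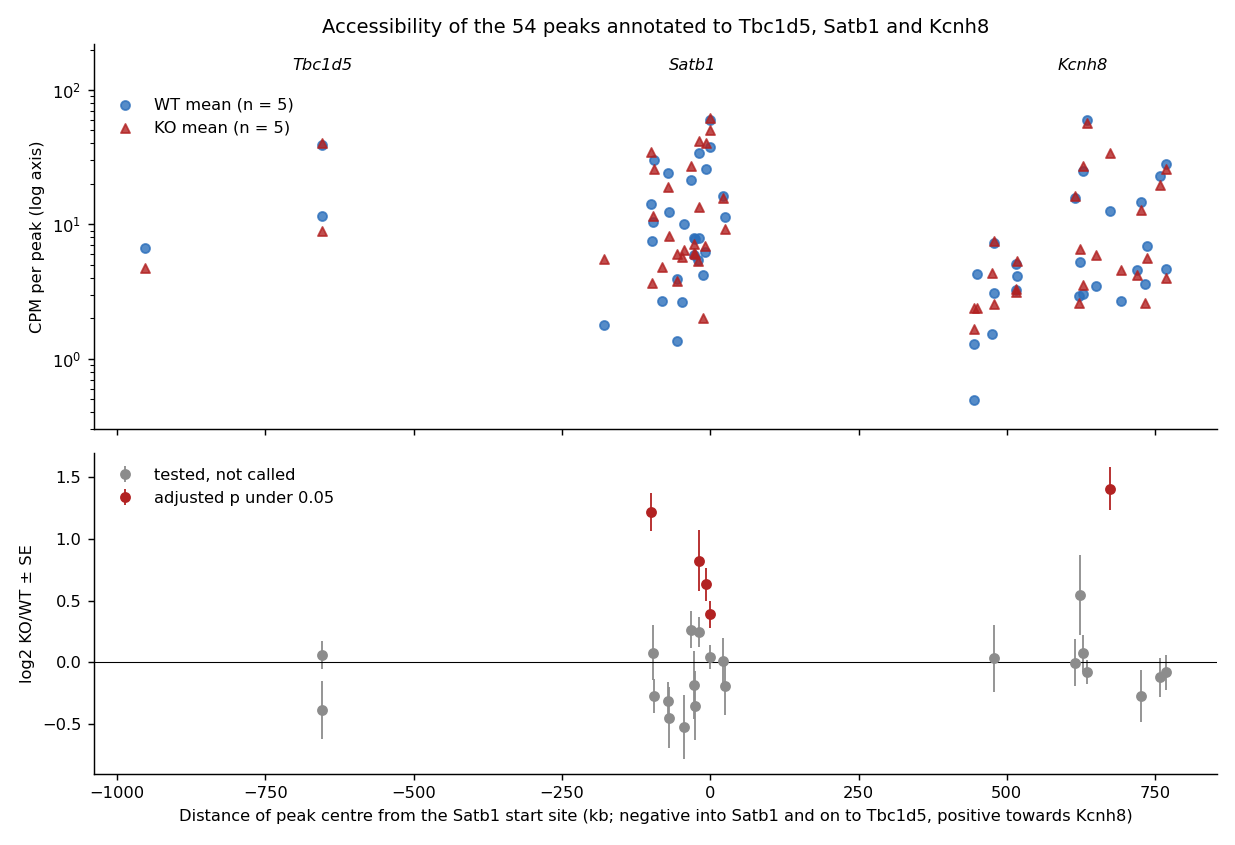
Accessibility of the 54 peaks along chromosome 17, by distance of the peak centre from the Satb1 start site in kb. Upper panel, mean CPM of 5 KO (triangles) and 5 WT (circles) libraries on a log axis. Lower panel, edgeR log2 KO/WT ± SE of the 27 tested peaks, of which the 5 called (red) stand above 0.

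The peak over the outer start site (51832905 to 51833388) had the highest level per length of the 54 peaks, at 125 CPM per kb of peak. It read 57.6, 61.5, 68.3, 62.2 and 58.4 CPM in KO libraries and 67.4, 51.3, 64.2, 55.1 and 59.4 CPM in WT libraries. The groups overlapped fully, with means of 61.6 ± 4.25 and 59.5 ± 6.54 CPM (SD, n = 5 each) and a log2 fold change of 0.04 ± 0.10 (SE; edgeR adjusted p = 0.915). Its sign turned when libraries were thinned to the smallest total (-0.068) or Sample_2274_WT was left out (-0.023).

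Next to it, the CpG-dense peak over the inner start (51832493 to 51832893) was higher in every KO library than in any WT library. Its KO values were 49.6, 58.4, 50.0, 45.7 and 48.4 CPM and its WT values 40.2, 35.3, 39.7, 37.9 and 36.5 CPM. The means of 50.4 ± 4.76 and 37.9 ± 2.07 CPM (SD, n = 5 each) differed by a log2 fold change of 0.39 ± 0.11 (edgeR adjusted p = 0.0255). Of all tested promoter peaks, 1.26% were called higher and 0.341% lower. The call ended with DESeq2 (adjusted p = 0.266), with merging of libraries that differed by less than sampling noise (0.130), with thinning (0.355), with no count filter (0.0540), without the 3 libraries of lowest total (0.163), and without Sample_2269_KO (0.0977), Sample_2272_KO (0.0512), Sample_2274_WT (0.0988) or Sample_2277_WT (0.0732). Adjusted p ranged from 0.0257 to 0.355 over its 19 alternatives, while the log2 fold change stayed between 0.34 and 0.42.

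The 5′ UTR peak (51826423 to 51826825) covers the third start and lies 6.5 kb into the gene. It stood at 42.4, 31.3, 40.0, 44.7 and 42.4 CPM in KO libraries and at 26.1, 25.9, 35.0, 18.6 and 24.3 CPM in WT libraries. Sample_2269_KO fell below Sample_2275_WT, and the other KO libraries were above all WT libraries. With means of 40.2 ± 5.22 and 26 ± 5.89 CPM (SD, n = 5 each), the log2 fold change was 0.63 ± 0.13 (edgeR adjusted p = 0.000533). Thinning all libraries to the smallest total ended this call (adjusted p = 0.0893), and its other 17 alternatives kept it.

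Within the first intron a narrow peak (51813881 to 51814068) rose by a log2 fold change of 0.82 ± 0.25 (edgeR adjusted p = 0.0328), where 5.04% of all tested intron peaks were called higher and 1.56% lower. KO libraries read 8.80, 11.5, 13.3, 22.3 and 11.5 CPM and WT libraries 6.52, 9.93, 5.75, 7.86 and 9.46 CPM. Means were 13.5 ± 5.20 and 7.90 ± 1.81 CPM (SD, n = 5 each), the groups overlapped, and Sample_2271_KO stood far above the rest. Without Sample_2271_KO the log2 fold change was 0.45 and the call ended (adjusted p = 0.503), as it did without Sample_2273_WT (0.0632), Sample_2275_WT (0.149) or Sample_2276_WT (0.0512), without the 3 libraries of lowest total (0.0664), with DESeq2 (0.322) and with limma-voom (0.0823), within a range of 0.0130 to 0.503 over 17 alternatives. Its broader neighbour (51814296 to 51814717) had 41.6 ± 5.33 and 34.0 ± 3.15 CPM and did not pass (log2 0.25, edgeR adjusted p = 0.371).

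Among the 16 tested Satb1 peaks the largest log2 fold change lay 3.26 kb past the 3′ end, in a distal intergenic peak (51732582 to 51732928). KO libraries had 40.8, 31.3, 38.3, 33.5 and 29.4 CPM there and WT libraries 10.9, 17.7, 14.1, 13.6 and 14.2 CPM. The lowest KO library was thus well above the highest WT library, and means of 34.7 ± 4.77 and 14.1 ± 2.42 CPM (SD, n = 5 each) gave a log2 fold change of 1.22 ± 0.16 (edgeR adjusted p = 6.04e-09). Of all tested distal intergenic peaks 4.4% were called higher and 1.3% lower, and by fold change this site ranked 254th of the 1027 peaks called higher. This site took 8.10% ± 1.04 of all Satb1 counts in KO libraries and 3.77% ± 0.59 in WT libraries (SD, n = 5 each). Over 18 alternatives its log2 fold change stayed between 1.15 and 1.31 and its call held.

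**Figure D2:**
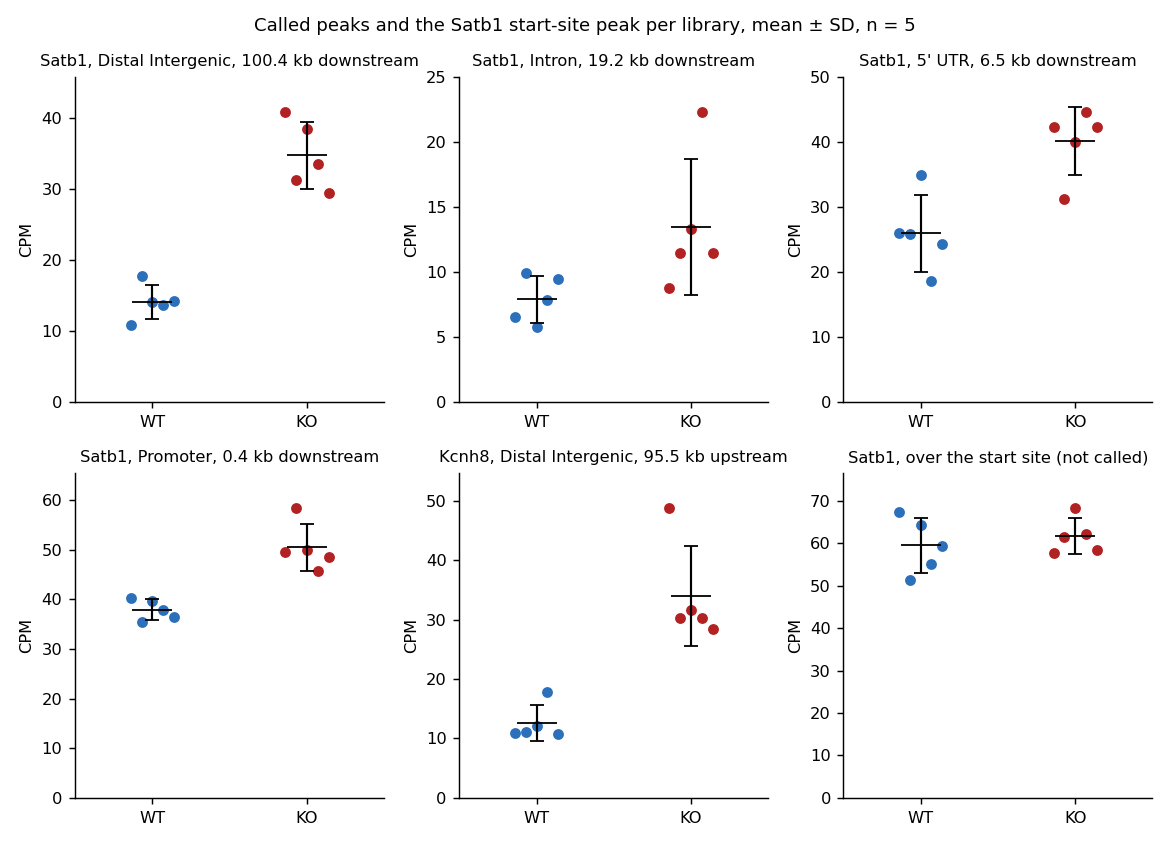
CPM per library (points) with mean and SD (bars), 5 WT and 5 KO libraries, for the 5 called peaks and for the Satb1 start-site peak, with distances from the gene's start site in kb. KO and WT points do not overlap at the 3′ flank peak of Satb1, its promoter peak and the Kcnh8 peak, and overlap in the other panels.

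Between the first intron and the 3′ flank 8 peaks of the gene body were tested and 0 called. Over all tested peaks 3.85% were called in either direction, so 0 of 8 is no result about this stretch. Of the 8, 2 had a log2 fold change above 0 and 6 below it. The deposited annotation places 13 peaks in this stretch, from the second intron to the 3′ UTR. Their sum was 145, 135, 135, 139 and 135 CPM in KO libraries and 124, 152, 145, 137 and 144 CPM in WT libraries, so the groups overlapped around means of 138 ± 4.39 and 141 ± 10.7 CPM (SD, n = 5 each). The 6 peaks in the 5′ UTR and first intron (3 tested, 2 called higher) summed to 106, 113, 105, 123 and 101 CPM in KO libraries and 83.7, 91.6, 88.3, 70.8 and 84.4 CPM in WT libraries, with no overlap between the groups. This division at the first intron was chosen after the values had been seen, and the sums carry no test.

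In that stretch the peaks farthest below 0 were an intron 5 peak (51789293 to 51789454) at 6.45 ± 2.14 and 10.1 ± 2.31 CPM (log2 -0.53 ± 0.26, edgeR adjusted p = 0.351) and an intron 9 peak (51763627 to 51763844) at 8.19 ± 3.94 and 12.3 ± 3.17 CPM (log2 -0.45 ± 0.25, adjusted p = 0.425), named after their values were seen. A 3′ UTR peak (51738037 to 51738326) had 25.8 ± 3.95 CPM in KO libraries and 30.1 ± 4.68 CPM in WT libraries (log2 -0.27 ± 0.14, edgeR adjusted p = 0.394). None of these passed the test. Upstream of the start sites Satb1 had 2 distal peaks, whose sum was 25 ± 4.99 CPM in KO libraries and 27.5 ± 3.88 CPM in WT libraries.

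The 10 untested Satb1 peaks were weak, with 36 to 91 counts over all 10 libraries. KO means were above WT means in 7 of them and below in 3. Those with the most counts, both in the first intron, were level: 5.30 ± 3.42 and 5.45 ± 2.00 CPM at 51813264 to 51813332, and 6.93 ± 3.41 and 6.20 ± 1.92 CPM at 51824217 to 51824282 (SD, n = 5 each). The sites named next had an unadjusted p under 0.05 by edgeR with no count filter, and were chosen after their values were seen. The first, 179 kb from the start and far past the 3′ end (51654116 to 51654285), had 6.4, 2.09, 8.33, 6.91 and 3.99 CPM in KO libraries and 3.26, 1.10, 1.04, 1.43 and 2.03 CPM in WT libraries. It alone passed (log2 1.67, edgeR adjusted p = 0.0394), on 48 counts in all. Of the 61581 peaks in that fit, 1223 were called higher and 413 lower. A site just past the 3′ end (51735776 to 51735832) read 3.67 ± 1.19 and 7.53 ± 2.05 CPM, a log2 fold change of -0.92 (edgeR adjusted p = 0.159). An intron 6 site (51785074 to 51785169) had 5.72 ± 2.29 and 2.65 ± 0.75 CPM without overlap between groups (log2 1.10, edgeR adjusted p = 0.209). Intron sites at 51776894 (3.81 ± 3.04 and 1.36 ± 0.81 CPM, log2 1.48, adjusted p = 0.245) and 51820348 (2.01 ± 0.70 and 4.18 ± 2.48 CPM, log2 -1.17, adjusted p = 0.292) did not pass either.

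**Figure D3:**
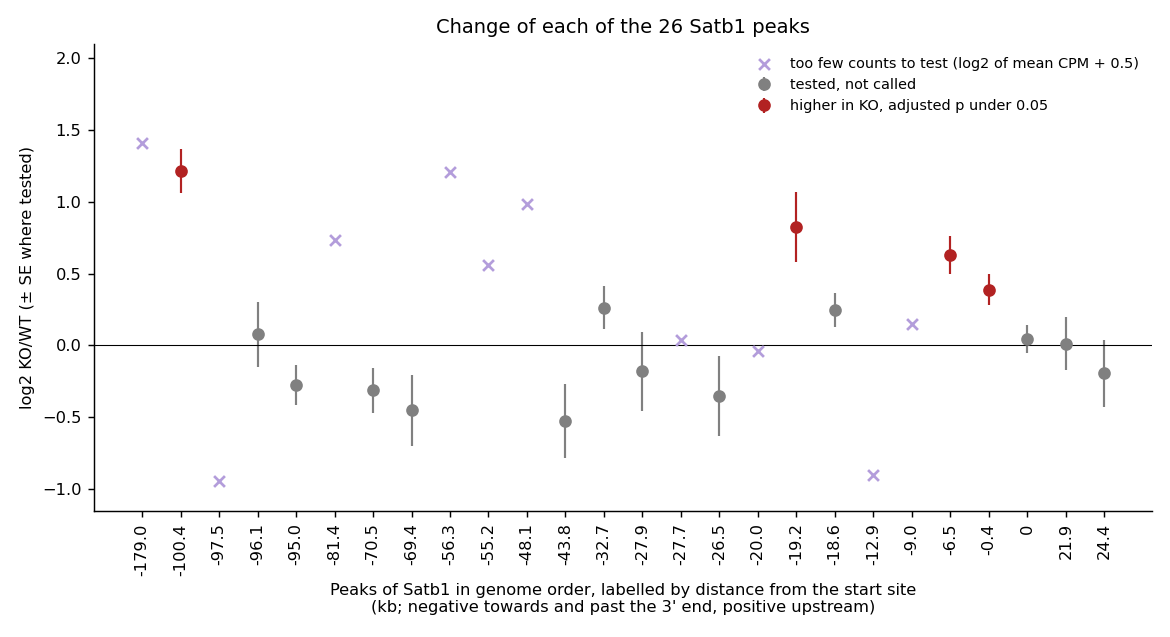
Log2 KO/WT of each of the 26 Satb1 peaks in genome order, labelled by distance from the start site in kb (counted towards and past the 3′ end with a minus sign). Circles with SE bars are edgeR values of tested peaks, red where the adjusted p was under 0.05, and crosses are log2 ratios of mean CPM + 0.5 of untested peaks. Red points stand 100.4, 19.2, 6.5 and 0.4 kb from the start, all above 0, and 6 of the 8 tested peaks from the second intron to the 3′ UTR lie below 0.

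Summed over its 26 peaks, Satb1 had 432, 427, 427, 444 and 411 CPM in KO libraries and 361, 379, 392, 353 and 378 CPM in WT libraries. All KO libraries were above all WT libraries, at 428 ± 12.0 and 373 ± 15.6 CPM (SD, n = 5 each). In the fit of 12489 gene sums, of which 1.65% were called higher and 0.536% lower (2.19% in either direction), the log2 fold change was 0.19 ± 0.05 (edgeR adjusted p = 0.0245). The Satb1 peaks that were not called one by one summed to a log2 fold change of 0.01 (adjusted p = 0.971), a fall that the choice of the 4 higher peaks to leave out fixes in advance. The call ended with DESeq2 (0.0903), with thinning to the smallest total (0.0517), without the 3 libraries of lowest total (0.114), with promoter peaks alone (0.352), without Sample_2268_KO (0.0580), Sample_2271_KO (0.0991), Sample_2273_WT (0.0725) or Sample_2276_WT (0.0805) and with the merged libraries (0.292), in a range of 0.0177 to 0.971 over 23 alternatives.

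By region, the distal peaks past the 3′ end read 43.9 ± 6.47 and 23.4 ± 0.76 CPM, the promoter peaks 112 ± 6.53 and 97.4 ± 8.42 CPM, and those inside the gene 247 ± 10.3 and 224 ± 16.1 CPM, KO first (SD, n = 5 each). The two-sided exact permutation p was 0.00794 for the first, the smallest that 5 against 5 libraries can give, 0.0238 for the second and 0.0317 for the third. Over the 8 region sums of the 3 genes the adjusted p was 0.0635, 0.0847 and 0.0847. A single region at the smallest p cannot go below 0.0635, so the first, whose libraries did not overlap, could not have passed alone.

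Kcnh8 was called at a single site, far before its start. All 25 of its peaks lie at or before its start site, towards Satb1, and none in the body of the gene. Of 9 tested peaks 1 was higher and 0 lower by edgeR, by DESeq2 and by limma-voom, with 0 lower at an unadjusted p under 0.05. Over all tested peaks edgeR called 2.94% higher and 0.911% lower, so 0 lower of 9 is no result about this gene. Log2 fold changes of the 9 had a median of 0.00, with 4 above 0 and 5 below.

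The called peak (52506808 to 52507175) is distal intergenic, 95.5 kb before the Kcnh8 start and 674 kb from that of Satb1. Of all tested distal intergenic peaks 4.4% were called higher and 1.3% lower. KO libraries read 48.8, 30.2, 31.7, 30.3 and 28.4 CPM and WT libraries 10.9, 11, 12, 17.9 and 10.8 CPM. Sample_2268_KO and Sample_2276_WT stood apart from their groups, and every KO library was above every WT library. Means of 33.9 ± 8.41 and 12.5 ± 3.03 CPM (SD, n = 5 each) gave a log2 fold change of 1.41 ± 0.17 (edgeR adjusted p = 1.31e-09), the largest of the 27 tested member peaks. In each of 18 alternatives the call held, with log2 fold changes of 1.25 to 1.56. The site took 12.7% ± 2.56 of the Kcnh8 counts in KO libraries and 5.08% ± 1.17 in WT libraries (SD, n = 5 each).

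No other tested Kcnh8 peak passed. Its strongest peak (52468378 to 52469016), 38 kb nearer to Satb1, had 59.2, 61.5, 58.3, 57.4 and 49.9 CPM in KO libraries and 66.3, 56.9, 57.5, 68.6 and 52.0 CPM in WT libraries. The groups overlapped at 57.3 ± 4.40 and 60.2 ± 6.96 CPM (SD, n = 5 each; log2 -0.08 ± 0.10, edgeR adjusted p = 0.817). A promoter peak 1.38 kb before the start (52600842 to 52601325) read 23.2, 31.3, 20, 27.1 and 27.9 CPM in KO libraries and 29.3, 33.1, 27.2, 21.4 and 29.0 CPM in WT libraries (log2 -0.08 ± 0.14, edgeR adjusted p = 0.882). No peak covered the Kcnh8 start itself, and of the 250 bases printed above, which hold 20 CpG, 43 lay in a weak peak with 3.96 ± 2.03 CPM in KO libraries and 4.69 ± 2.23 CPM in WT libraries. The 16 untested peaks held 17 to 92 counts each, with KO means above WT means in 8 and below in 8. Those with the most counts read 5.33 ± 1.86 and 4.15 ± 1.65 CPM (52351286 to 52351447) and 5.62 ± 1.47 and 6.93 ± 1.03 CPM (52569705 to 52569869).

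Over all its peaks Kcnh8 had 286, 283, 243, 262 and 252.5 CPM in KO libraries and 250, 259, 227, 254 and 243 CPM in WT libraries. The groups overlapped, with means of 265 ± 18.7 and 246 ± 12.5 CPM (SD, n = 5 each) and a log2 fold change of 0.11 ± 0.06 that did not pass (edgeR adjusted p = 0.452). Without the called peak, which was left out for being higher, the log2 fold change was 0.00 (edgeR adjusted p = 0.994). That fall is fixed in advance by the choice of the peak to leave out.

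Tbc1d5 had 3 peaks, of which 2 were tested and neither passed. By edgeR, DESeq2 and limma-voom 0 were called in either direction, and edgeR had 0 at an unadjusted p under 0.05. Over all tested peaks edgeR called 3.85%, so 0 of 2 is no result about this gene. The peak over its start site (51178861 to 51179590) had 40.0, 40.7, 38.3, 43.1 and 39.9 CPM in KO libraries and 39.1, 39.7, 39.2, 34.3 and 43.2 CPM in WT libraries (log2 0.06 ± 0.11, edgeR adjusted p = 0.907). It takes in 238 of the 250 bases before the start at 51179352, which hold 29 CpG. A smaller promoter peak beside it (51178604 to 51178823) read 6.4, 12.5, 8.33, 9.04 and 8.48 CPM in KO libraries and 12.0, 12.1, 12.0, 12.9 and 8.78 CPM in WT libraries, overlapping groups with a log2 fold change of -0.39 ± 0.24 (edgeR adjusted p = 0.506). The untested intron peak (50880095 to 50880267) had 4.76 ± 2.13 and 6.62 ± 3.13 CPM. Their sum was 54.1 ± 4.88 CPM in KO libraries and 57.3 ± 4.49 CPM in WT libraries (SD, n = 5 each; log2 -0.06 ± 0.10, edgeR adjusted p = 0.897).

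**Figure D4:**
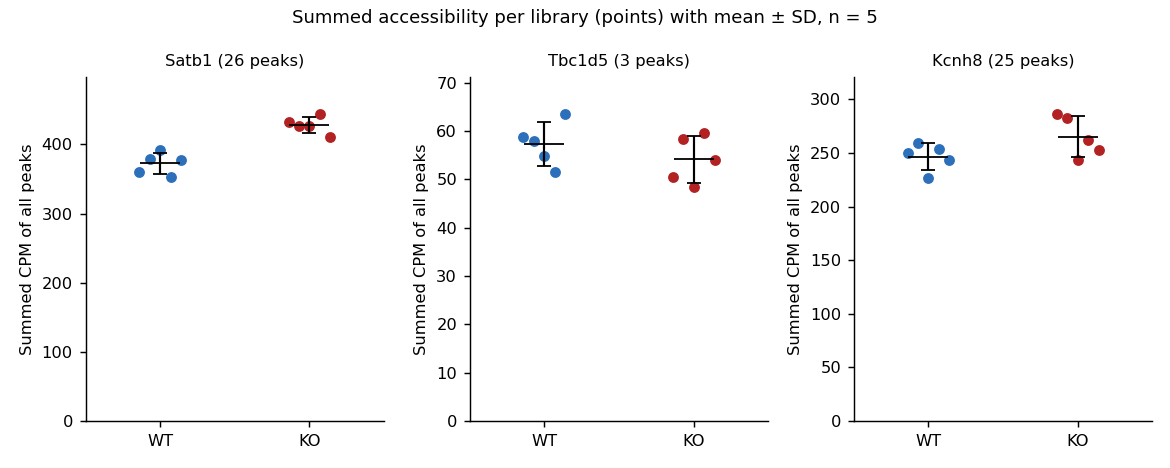
Summed CPM of all peaks of Satb1, Tbc1d5 and Kcnh8 per library (points) with mean and SD (bars), 5 WT and 5 KO libraries. Satb1 points run from 411 to 444 in KO and from 353 to 392 in WT, and the points of the other genes overlap between groups.

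Whether the members changed by different amounts was asked with log2 ratios of their gene sums within each library, which cancel library size. Satb1 over Tbc1d5 was 2.98 ± 0.12 in KO and 2.69 ± 0.11 in WT (SD, n = 5 each), with KO values of 2.86 to 3.13 above WT values of 2.56 to 2.83. The difference of 0.28 had a two-sided exact permutation p of 0.00794 (0.0238 adjusted over the 3 ratios). For Kcnh8 over Tbc1d5 the difference was 0.19 (exact permutation p = 0.0635, adjusted 0.0952) and for Satb1 over Kcnh8 0.10 (exact permutation p = 0.206, adjusted 0.206). A difference between Satb1 and Kcnh8 was thus not shown.

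The stretch between the Satb1 and Kcnh8 start sites held 59 peaks, of which 26 were tested. Each of edgeR, DESeq2 and limma-voom called 3 higher and 0 lower (0 lower at an unadjusted p under 0.05 by edgeR). Over all tested peaks edgeR called 2.94% higher and 0.911% lower, and over distal intergenic peaks 4.4% and 1.3%. At such shares 0 lower among 26 is no result about the stretch. Besides the Kcnh8 site the 3 higher peaks were a pair assigned to Gm20098, a long non-coding RNA gene from 51882727 to 51965257 that RefSeq names. The stronger (52162403 to 52163329), 329 kb from the Satb1 start and 197 kb past the end of Gm20098, read 138, 134, 147, 130 and 115 CPM in KO libraries and 75.0, 81.1, 77.3, 90.8 and 75.0 CPM in WT libraries. Its lowest KO library was above its highest WT library, at 132 ± 11.7 and 79.8 ± 6.62 CPM (SD, n = 5 each; log2 0.70 ± 0.09, edgeR adjusted p = 1.30e-08), and its call held in 19 alternatives. The other (52149121 to 52149473) had 27.7 ± 5.95 and 13.3 ± 4.13 CPM, also without overlap (log2 0.98 ± 0.18, edgeR adjusted p = 7.05e-05), and lost its call with thinning to the smallest total (0.0689).

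Peaks without a deposited symbol were summed by gene number, in a fit of 14109 such sums. All 32 peaks assigned to Gm20098 together had 513, 519, 543, 508 and 489 CPM in KO libraries and 409, 443, 416, 424 and 395 CPM in WT libraries. No library overlapped between groups (515 ± 19.8 and 417 ± 18.1 CPM, SD, n = 5 each; log2 0.29 ± 0.05, edgeR adjusted p = 0.000111). The sum without its 2 called peaks, which were left out for being higher, had a log2 fold change of 0.13 (adjusted p = 0.426). Between the Tbc1d5 promoter peaks and the Kcnh8 start, Satb1 included, 41 peaks were tested, with 7 higher (17.1%) and 0 lower by edgeR. DESeq2 called 5 and 0, and limma-voom 6 and 0. The 7 are the calls at Satb1, Kcnh8 and Gm20098 already given above. Over all tested peaks edgeR called 2.94% higher and 0.911% lower.

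Farther out, within 2 Mb of the outermost members, 125 other peaks (the Gm20098 peaks included) gave 67 tests with a median log2 fold change of 0.02. Of the 67, 7 were higher (10.4%) and 1 lower, where 2.94% of all tested peaks were called higher and 0.911% lower. The lower site was an intron peak of Rftn1, which encodes a lipid raft protein (50148239 to 50148477, 7.61 ± 3.16 and 17.6 ± 2.83 CPM, log2 -1.05 ± 0.22, edgeR adjusted p = 0.000581). A second Rftn1 intron peak (50170222 to 50170472) was higher, with 16.5 ± 4.06 and 8.88 ± 3.3 CPM (log2 0.79, adjusted p = 0.0246). Plcl2, which encodes a phospholipase C-like protein, had a distal site (50469871 to 50470119) at 31.5 ± 4.14 and 18.7 ± 2.12 CPM (log2 0.68, adjusted p = 0.00109) and an intron site (50570620 to 50570949) at 15 ± 2.79 and 5.47 ± 1.02 CPM (log2 1.45, adjusted p = 8.74e-06). Dazl, a germ cell RNA-binding protein gene, had a promoter peak (50291592 to 50291727) at 9.51 ± 1.37 and 4.63 ± 1.49 CPM (adjusted p = 0.0298). Sgo1, the gene of a guardian of centromere cohesion, had an intron peak (53650201 to 53650506) at 13.3 ± 5.73 and 6.85 ± 1.62 CPM (adjusted p = 0.0153). The distal Plcl2 call ended with thinning (adjusted p = 0.257). The higher calls at Rftn1, Dazl and Sgo1 ended with DESeq2 (adjusted p = 0.171, 0.225 and 0.142) and when single libraries were left out, most of all without Sample_2274_WT (0.177), Sample_2275_WT (0.180) and Sample_2268_KO (0.212), in that order. No gene sum in this window other than that of Gm20098 was called.

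Genes that encode partners of SATB1 or other chromatin organisers, a list of 25 of which 24 had peaks and were tested, showed no called gene sum. By edgeR, DESeq2 and limma-voom 0 were called. Over all gene sums edgeR called 2.19% in either direction, so 0 of 24 is no result about this list. At an unadjusted p under 0.05 edgeR had 2 higher and 1 lower, DESeq2 1 and 1, and limma-voom 2 and 2. Their median log2 fold change was 0.00, against -0.01 over all 12489 genes. The smallest adjusted p were those of Stag2, a cohesin subunit (81.9 ± 5.68 and 68.3 ± 6.52 CPM, log2 0.25 ± 0.09, adjusted p = 0.125), Smarca4, the BRG1 ATPase of SWI/SNF (98.8 ± 7.56 and 113 ± 8.44 CPM, log2 -0.20 ± 0.07, adjusted p = 0.169), Pml, the scaffold of PML nuclear bodies (46.8 ± 4.52 and 39.5 ± 4.39 CPM, log2 0.29 ± 0.11, adjusted p = 0.197), and Chd4, the NuRD ATPase (47.3 ± 3.98 and 53.5 ± 3.38 CPM, log2 -0.20 ± 0.10, adjusted p = 0.433), all KO first (SD, n = 5 each). Of their 100 tested peaks 3 were higher, 1 each at Stag1, Baz1a and Bcl11b, and 0 lower, close to the 2.94% called higher over all peaks. Lower calls were 0 by DESeq2 and limma-voom as well, and edgeR had 3 lower at an unadjusted p under 0.05.

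Across the 10 libraries, among 7379 genes with at least 50 CPM, the gene sums most like that of Satb1 included those of Phf6 (Pearson r of log2 CPM 0.95), Tox (0.95), Samhd1 (0.94) and Tmprss13 (0.94). These lie on chromosomes X, 4, 2 and 9, and the 10 points share the KO and WT grouping and the library depth. Phf6 encodes a PHD-finger protein, Samhd1 an enzyme that degrades dNTPs and Tmprss13 a membrane serine protease. Tox, an HMG-box factor of T cell development, had 326 ± 6.99 CPM in KO libraries and 265 ± 9.29 CPM in WT libraries. All were chosen for this likeness, so their r is a description only. Among the same genes Kcnh8 ranked 1056th (r = 0.45, Spearman rho 0.54) and Tbc1d5 4197th (r = -0.11, rho -0.07). Within the groups the order differed: r was 0.27 in KO and -0.37 in WT libraries for Kcnh8, and 0.45 and 0.43 for Tbc1d5 (n = 5 each).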

How the data were processed

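ATAC-seq libraries of 60000 cells were read as single 75 bp reads, per the labels' protocols. Whole-number, unnormalized read counts per peak were deposited by the authors for a common set of 61581 peaks, 10 of them mitochondrial, beside a ChIPseeker-style annotation of 61571 peaks with the nearest gene's symbol. The submitters' processing notes name mm10, MACS2 2.1.2 and ChIPseeker 1.18.0 beside Bowtie2 2.3.5, Trimmomatic 0.36, SAMtools 1.9, Picard, deepTools (3.3.0, 3.5.2) and DESeq2 1.22.2. Shifting of reads to the cut site, handling of duplicates and pooling for peak calling are not given in the sources used here. The nearest gene is not shown to be the gene that a peak acts on.

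Counts were fitted with edgeR 4.0.16 in R 4.3.3 (TMM, filterByExpr by group, glmQLFit and glmQLFTest, no covariate) over 34910 peaks, and again over sums of 12489 gene symbols. Benjamini-Hochberg adjustment covered all tested features. The other 26671 peaks had too few counts. The filter can let a peak in through either group. SE were derived from the F statistic and fold changes include edgeR's small prior count. CPM are per 1000000 TMM-scaled counts in tested peaks. Groups were called not overlapping on log2 CPM with a prior count of 2. Region sums and ratios used log2(CPM + 0.5) and two-sided exact permutation over 252 assignments. Alternatives used DESeq2 1.42.0, limma 3.58.1 (voom), other scalings and filters, thinning and left-out libraries. The code was tested on simulated data.

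Libraries that differed by less than sampling noise (chi-square per degree of freedom of 0.957 to 0.993, in other pairs up to 1.38) were Sample_2268_KO and Sample_2270_KO, Sample_2271_KO and Sample_2272_KO, Sample_2274_WT and Sample_2275_WT, and the other 3 WT libraries. Nothing in the labels calls them repeats and their depths differ, so n = 5 was kept and merging was an alternative.

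Members, lists and rules were chosen with earlier results of these data known. Named peaks were all called member peaks and, per gene, tested promoter peaks, the strongest peak and the 2 untested peaks with the most counts. Of the partner list up to 4 genes by adjusted p were named, of the neighbours every called peak or gene, and the 5 genes most like Satb1, of which 1 is not reported here.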

Additional observations from a re-analysis of the deposited data

Results flagged for a closer look

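Among 52 groups of 5 libraries examined for named peaks, gene sums and region sums, 4 held a library far from the other 4 by Dixon's criterion, which chance alone meets in about 1 of 20 groups. At the called Kcnh8 peak (52506808 to 52507175) the highest KO library, Sample_2268_KO, had 48.8 CPM while the others had 28.4 to 31.7 CPM. At the same peak the highest WT library, Sample_2276_WT, had 17.9 CPM while the others had 10.8 to 12.0 CPM. At the smaller Tbc1d5 promoter peak (51178604 to 51178823) the lowest WT library, Sample_2277_WT, had 8.78 CPM beside 12.0 to 12.9 CPM in the others. For the sum of the Tbc1d5 promoter peaks the lowest WT library, Sample_2276_WT, had 47.2 CPM beside 51.1 to 52.0 CPM. Without Sample_2268_KO or any other single library the Kcnh8 peak stayed called.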

How the results depend on the processing

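Of the 4 Satb1 peaks called higher, 2 remained as a count with DESeq2, 1 with a mean count of at least 50 (9090 peaks tested, some member peaks among those dropped), 1 after thinning and 2 without the 3 libraries of lowest total (Sample_2269_KO, Sample_2270_KO and Sample_2273_WT), and leaving out single libraries gave 3 to 4. For Kcnh8 the count of 1 became 0 at a mean count of at least 50, where its called peak was not tested, and was 1 whichever library was left out. Over all peaks 1027 were called higher and 318 lower. DESeq2 called 529 and 58, the minimum mean of 50 gave 123 and 35, thinning gave 233 and 41, and single libraries left out gave 780 to 1042 and 243 to 352. The Satb1 gene sum (log2 0.19) kept its direction but lost its call with DESeq2 (0.19), thinning (0.25), the 3 lowest libraries left out (0.19), merged libraries (0.18) and promoter peaks only (0.19). Leaving out single libraries gave 0.17 to 0.22. With peaks not called one by one it was 0.014, a fall that leaving out the 4 higher peaks fixes in advance. The Kcnh8 gene sum turned negative with promoter peaks only (-0.12) and with uncalled peaks only (-0.0039). The second is a fall that leaving out its higher peak fixes in advance. The Satb1 start-site peak turned negative with thinning (-0.068), and leaving out single libraries gave -0.023 (without Sample_2274_WT) to 0.081. The ratio of Satb1 to Tbc1d5 lost its call without the 3 lowest libraries (0.25, exact permutation adjusted p = 0.171, 3 against 4 libraries). It gave 0.24 to 0.32 with single libraries left out. Leaving out single libraries gave 0.13 to 0.24 for the ratio of Kcnh8 to Tbc1d5, 0.82 to 0.94 for the Satb1 peaks past the 3′ end, 0.11 to 0.17 for those inside the gene and 0.16 to 0.24 for its promoter peaks, each past the threshold in at least 1 of these. The cause was not tested. No paired analysis was possible because the running numbers of the libraries pair no KO with a WT library. Depth limited the 27 member peaks left untested, which held 17 to 92 counts over 10 libraries.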
